A study of Mus musculus with 4 samples.

Results

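In single-cell RNA-seq of mouse pituitary glands, 161 of 27220 kept barcodes (cell labels of the droplet method) were rich in the RNA of both growth hormone, encoded by Gh, and prolactin, encoded by Prl. Barcodes were kept if 500 or more genes were detected in them and if no more than 20% of their unique molecular identifiers (UMIs, each standing for a captured RNA molecule) came from mitochondrial genes. A barcode was called double-rich if Gh gave at least 15% and Prl at least 5% of its UMIs. Barcodes with Gh at 15% or more and Prl under 5% were called Gh-only (n = 8645), and barcodes with Prl at 5% or more and Gh under 10% were called Prl-only (n = 4161). The classes were chosen by the measured Gh and Prl shares, so those values are given as a description and were not tested. The double-rich barcodes are called so throughout and are given no cell type name.

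The glands came from wild-type C57BL/6J male mice fed a high-fat diet (HFD) or a control diet (CTRL) for 12 weeks. They were dissociated with collagenase and trypsin, and RNA was captured from its 3' end on the 10x Chromium v3.1 platform. There were 2 libraries per diet, HFD 1, HFD 2, CTRL 1 and CTRL 2, holding 10921, 8180, 7463 and 8173 deposited barcodes and 74758237, 97223297, 92818116 and 101903367 UMIs. The number of glands behind each library, and whether the libraries of a diet came from different animals, are not given in the labels, so a p-value here speaks only for the spread among the libraries, and that spread may be technical.

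Growth hormone is made by somatotropes and prolactin by lactotropes, and both cell types, like thyrotropes, depend on the POU-domain factor Pou1f1. Cells that hold both hormones, called mammosomatotropes, are known from the rodent pituitary and have been described as able to turn toward either hormone. A droplet that captures several cells, or RNA released by broken cells, can also give a barcode with both RNAs, and the number of UMIs and genes per barcode bears on such mixtures. In the GENCODE annotation, Gh lies on mouse chromosome 11 (mm10 chr11:106300271-106301865, minus strand) and Prl on chromosome 13 (chr13:27057570-27065205, plus strand).

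Only the stretch before the Prl start is shown, as the promoter sequences used had no entry for Gh. Pou1f1 is known to drive Prl in lactotropes. The Prl stretch covers chr13:27057320-27057569 on the plus strand (RefSeq, GRCm38.p6). Capitals mark each match to the letters TATNCAT or to their reverse complement ATGNATA, a form of the Pou1f1 motif.

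Prl: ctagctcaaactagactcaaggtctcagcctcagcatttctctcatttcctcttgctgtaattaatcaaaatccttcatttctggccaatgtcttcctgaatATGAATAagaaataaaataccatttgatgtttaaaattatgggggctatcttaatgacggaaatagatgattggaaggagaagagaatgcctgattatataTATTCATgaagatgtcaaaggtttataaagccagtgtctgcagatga

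The window held 2 matches, which did not overlap, at positions -148 to -142 and -47 to -41 counted from the start. On both strands together, 2603 of 32851 promoter windows in the same table (7.92%) held at least 1 match. The matches describe the letters and no binding was measured.

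Some libraries stood apart or shared barcodes. HFD 1 and HFD 2 shared 3116 deposited barcodes, of which 1558 were kept in both, and the HFD 1 barcode then held a median of 5.64% of the UMIs of its HFD 2 namesake (interquartile range 5.44% to 5.85%). HFD 1 also shared 1423 barcodes with CTRL 2, and every other pair of libraries shared 14 to 22. Kept barcodes with less than 0.2 of the UMIs of the same barcode elsewhere, called shallow copies here, numbered 1833 in HFD 1 (22.9%), 1 in HFD 2, 3 in CTRL 1 and 87 in CTRL 2. CTRL 1 stood apart among barcodes too shallow to be kept: its 2915 barcodes under 500 genes had median shares of 16.3% Gh, 4.87% Prl and 2.31% Pomc, the precursor of adrenocorticotropic and melanocyte-stimulating hormones. In the same kind of barcode the median Gh share was 0.310% in HFD 1, 2.08% in HFD 2 and 0.608% in CTRL 2.

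By library, the double-rich barcodes numbered 17 in HFD 1, 32 in HFD 2, 83 in CTRL 1 and 29 in CTRL 2. They fell into a deep and a shallow set. A stricter barcode filter (1000 or more genes, mitochondrial share of 10% or less) kept 13, 32, 26 and 29 of them in HFD 1, HFD 2, CTRL 1 and CTRL 2, and left out 4 in HFD 1 and 57 in CTRL 1. The 61 left out had 818 to 1835 UMIs (median 992), whereas the 100 that passed, called deep here, had a median of 26848 UMIs. Of the 26 deep barcodes in CTRL 1, 2 had under 3000 UMIs and were drawn as open points in the plot of hormone shares.

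The 57 shallow barcodes of CTRL 1 had median shares of 17.2% Gh, 5.57% Prl and 2.31% Pomc, next to the 16.3%, 4.87% and 2.31% of that library's barcodes with under 500 genes. Their Gh shares spanned 15.2% to 20.2%. The 26 deeper CTRL 1 barcodes had a median Pomc share of 0.0433% and Gh shares of 15.4% to 44.6%. All 4 shallow barcodes of HFD 1 were shallow copies: 3 carried the sequence of a double-rich barcode of HFD 2 and 1 that of a double-rich barcode of CTRL 2, so the 161 barcodes had 157 distinct sequences. What gave rise to either shallow group was not tested.

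The deep double-rich barcodes had median Gh shares of 22.7% in HFD 1, 21.9% in HFD 2, 22.3% in CTRL 1 and 21.4% in CTRL 2. Their median Prl shares were 6.39%, 12.2%, 11.1% and 8.93% in the same libraries. Gh exceeded Prl in 13 of 13, 25 of 32, 24 of 26 and 25 of 29 deep barcodes. Across barcodes, Pearson's r between the Gh and Prl shares was -0.37, -0.42, -0.11 and -0.05, a description of values that share a total. In barcodes with endothelial markers, which should lack both hormones, the median Gh share was 0.414% in HFD 1, 0.301% in HFD 2, 0.536% in CTRL 1 and 0.232% in CTRL 2, and the median Prl share lay between 0.0508% and 0.161%. Median UMI totals of those endothelial barcodes were 4821, 7859, 8591 and 5376.5.

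**Figure D1:**
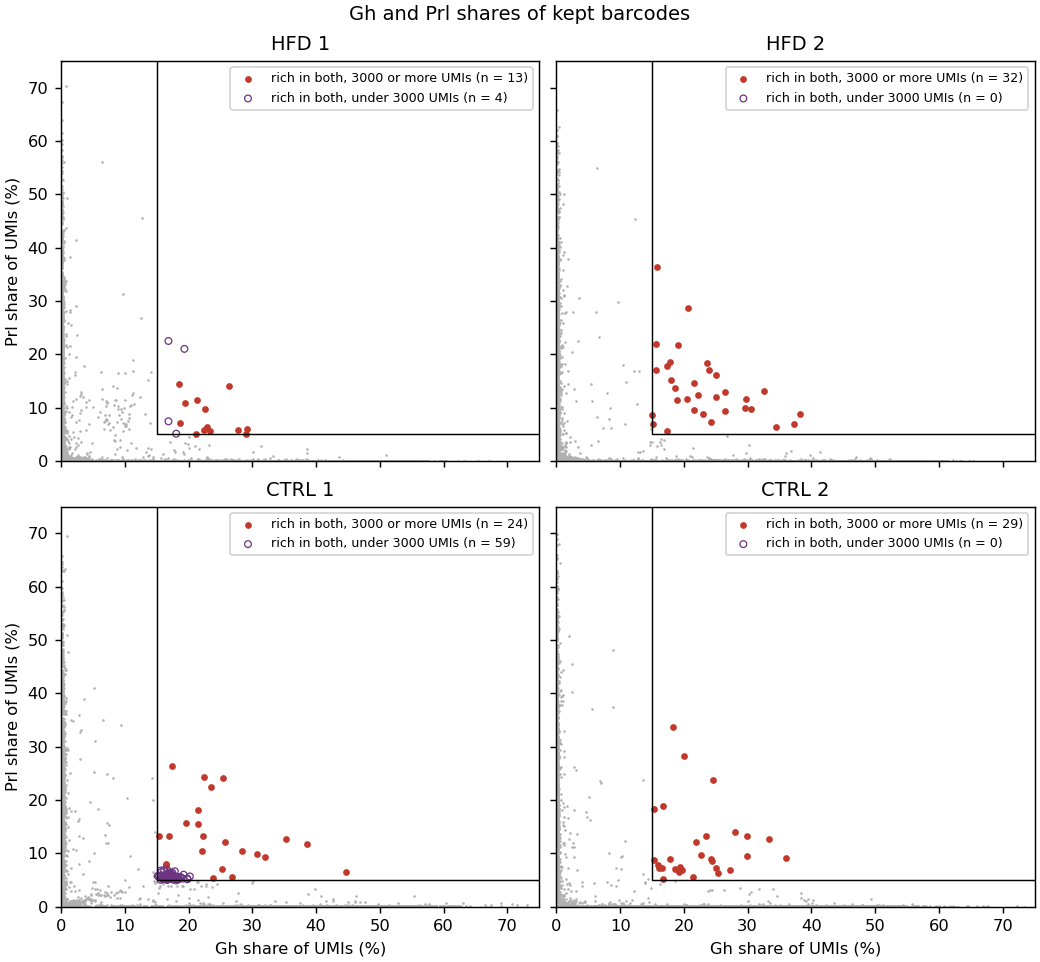
Share of UMIs from Gh (x axis, %) against share from Prl (y axis, %) for every kept barcode, with 1 panel per library and lines at the limits of 15% Gh and 5% Prl. Filled red points are double-rich barcodes with 3000 or more UMIs and open points those with fewer: 59 such points crowd the corner of the CTRL 1 panel and 4 lie in HFD 1, while HFD 2 and CTRL 2 have none.

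Few Gh-rich barcodes had an intermediate Prl share. Among 8806 barcodes with Gh at 15% or more, 8497 (96.5%) had under 0.5% Prl, 23 had 4% to 5% and 59 had 5% to 6%. Under the stricter barcode filter the last 2 bins held 11 and 13 barcodes. Among 4370 barcodes with Prl at 5% or more, 3952 had under 1% Gh, 9 had 14% to 15% and 19 had 15% to 16%.

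Median UMI totals of the deep double-rich barcodes exceeded those of both single-hormone classes in each library. Under the stricter filter the median total of double-rich barcodes was 22850 in HFD 1, 24450.5 in HFD 2, 40509.5 in CTRL 1 and 27835 in CTRL 2. Gh-only barcodes had medians of 11612, 11383, 23078 and 15434.5 in the same libraries, and Prl-only barcodes 10802, 12351, 18441 and 13660. The double-rich median was higher in each of the 4 libraries, by 1.76 to 2.15 times over Gh-only (geometric mean 1.91) and by 1.98 to 2.20 times over Prl-only (geometric mean 2.08). The exact 2-sided sign-flip permutation test over the 4 libraries gave p = 0.125 for each, the smallest p that 4 pairs allow. The totals hold the Gh and Prl UMIs used by the rule, and the filter left out barcodes with few genes. This test is therefore independent of neither. Without Gh and Prl UMIs the geometric mean ratios were 1.96 over Gh-only and 1.72 over Prl-only (exact sign-flip permutation p = 0.125 for each). The double-rich median total lay close to the sum of a Gh-only and a Prl-only median. It was 1.02 of that sum in HFD 1, 1.03 in HFD 2, 0.976 in CTRL 1 and 0.957 in CTRL 2. With Gh and Prl UMIs left out it was 0.962, 0.912, 0.892 and 0.897 of the sum, below it in each library.

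With the shallow barcodes included, the direction rested on CTRL 1. There the median UMI total of all 83 double-rich barcodes was 1059, against 22696.5 in Gh-only and 18210.5 in Prl-only barcodes. In HFD 1, HFD 2 and CTRL 2 the double-rich medians were 20795, 24450.5 and 27835, which is 1.82 to 2.16 times the Gh-only medians. The mean log2 ratio over the 4 libraries was then -0.39 against Gh-only and -0.25 against Prl-only (exact sign-flip permutation p = 1 for each). Without CTRL 1 it was 0.95 and 1.04. With barcodes marked by a doublet score left out, the double-rich median was 0.115 of the Gh-only median in HFD 1, 1.41 in HFD 2, 0.0452 in CTRL 1 and 1.48 in CTRL 2, and the mean log2 ratio was -1.63 against Gh-only and -1.49 against Prl-only (exact sign-flip permutation p = 0.5 for each).

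**Figure D2:**
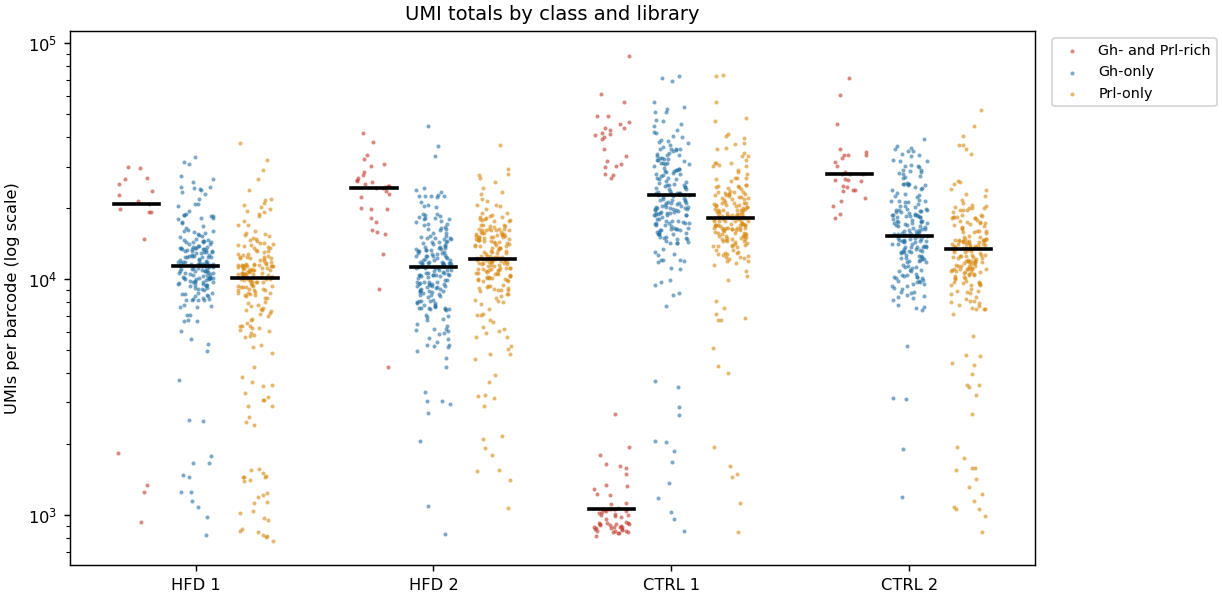
UMIs per barcode on a log scale for double-rich (Gh- and Prl-rich), Gh-only and Prl-only barcodes of each library. Each point is a barcode (up to 200 drawn per class and library, at random) and each black line is the median of the whole class; in HFD 1, HFD 2 and CTRL 2 the double-rich line lies above the other 2, and in CTRL 1 it lies at 1059, with a second group of points far above it.

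The numbers of detected genes followed the same pattern. Deep double-rich barcodes had medians of 4962 genes in HFD 1, 4605.5 in HFD 2, 5940 in CTRL 1 and 5214 in CTRL 2. Gh-only barcodes had 3195.5, 3067.5, 4396 and 3631, and Prl-only barcodes 3254, 3399, 4323 and 3707.5. The ratio of medians averaged 1.46 over Gh-only and 1.41 over Prl-only (geometric means), higher in 4 of 4 libraries (exact sign-flip permutation p = 0.125 for each). The stricter filter itself sets a lower limit on detected genes, so this test is not independent of the filter. With all kept barcodes included, the ratio in CTRL 1 was 0.140 over Gh-only and 0.142 over Prl-only. In HFD 1, HFD 2 and CTRL 2 it was 1.44 to 1.51 and 1.37 to 1.48. The geometric means were then 0.819 and 0.801. Gene numbers were also compared at a fixed depth. Among 3000 UMIs of genes other than Gh and Prl, double-rich barcodes had a median of 1644, 1622, 1650 and 1634 genes in HFD 1, HFD 2, CTRL 1 and CTRL 2. Gh-only barcodes had 1667, 1665, 1648 and 1636 and Prl-only barcodes 1589, 1598, 1621 and 1604. The geometric mean ratio was 0.990 over Gh-only (p = 0.375) and 1.02 over Prl-only (p = 0.125, exact sign-flip permutation tests), and 4, 1, 59 and 0 double-rich barcodes of the 4 libraries were left out as too shallow.

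The amounts of each hormone RNA were close to those of a single barcode of the matching class. Deep double-rich barcodes held a median of 5417, 4994.5, 9354.5 and 6218 Gh UMIs in HFD 1, HFD 2, CTRL 1 and CTRL 2, which is 1.39, 1.24, 0.968 and 1.11 times the Gh-only medians. Their Prl UMIs, with medians of 1517, 2875.5, 4503.5 and 2924, were 0.869, 1.04, 1.09 and 1.04 times the Prl-only medians. For the genes other than these, UMIs per deep double-rich barcode were set against the sum of the means of a Gh-only and a Prl-only barcode. The median of that ratio over genes was 0.921, 0.838, 0.827 and 0.916. The hormone values follow from the rule and carry no test.

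Simulated doublets (profiles made by adding pairs of barcodes of the same library) were the near neighbours of most deep double-rich barcodes. The highest doublet scores, marked at an assumed rate of 0.8% per 1000 barcodes, included 13 of 13 deep double-rich barcodes in HFD 1, 24 of 32 in HFD 2, 17 of 26 in CTRL 1 and 22 of 29 in CTRL 2, 76 of 100 in all. In Gh-only barcodes the marked share was 3.54% to 5.50% over the 4 libraries and in Prl-only barcodes 2.42% to 5.18%. The score compares the whole profile, Gh and Prl included, and pairs of a Gh-rich with a Prl-rich barcode are among the simulated ones. None of the 61 shallow double-rich barcodes was marked. Of the 100 deep barcodes, 4 had no more UMIs than the Gh-only median of their library.

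How often Gh and Prl were both abundant was set against other hormone pairs. For each pair, the number of barcodes rich in both genes was divided by the number that the product of the 2 single shares gives. Under the stricter filter the ratio for Gh and Prl was 0.0425 in HFD 1, 0.0906 in HFD 2, 0.0890 in CTRL 1 and 0.0714 in CTRL 2. For Gh with Pomc (at least 5% of UMIs), a gene of other pituitary cell types, it was 0.0229, 0.0404, 0.0985 and 0.0717. For Prl with Pomc it was 0.0453, 0.0724, 0.108 and 0.0576. The 95% Poisson intervals of the 3 pairs, which cover counting error only, overlapped in every library: in HFD 2, where Gh with Prl and Gh with Pomc lay farthest apart, they ran from 0.0619 to 0.128 and from 0.0202 to 0.0722. Overlapping intervals do not show that the pairs were equally frequent. Under the 500-gene filter the ratio for Gh and Prl in CTRL 1 was 0.254 (95% interval 0.202 to 0.315), above the 0.0967 for Gh with Pomc and the 0.103 for Prl with Pomc, and 57 of the 83 barcodes behind it were shallow.

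**Figure D3:**
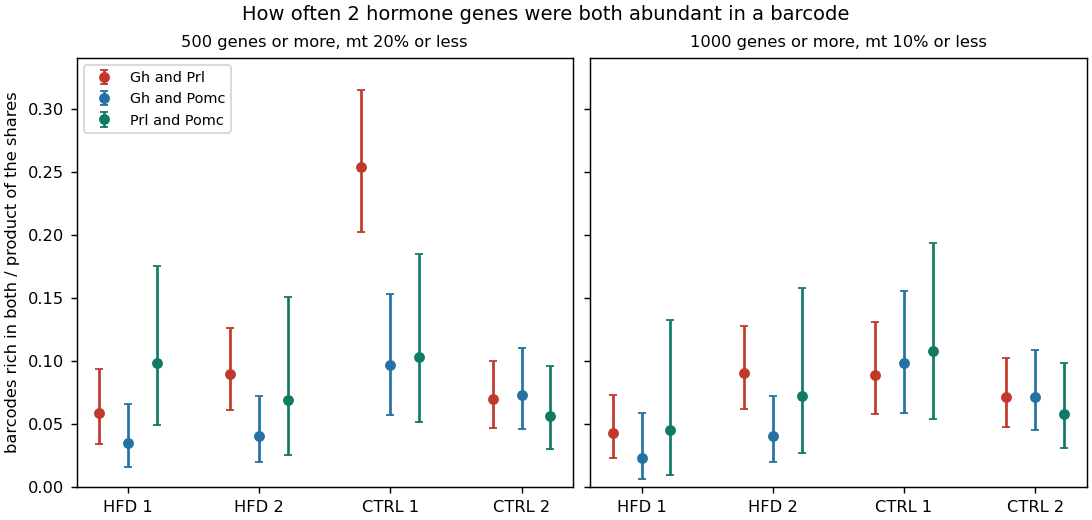
Number of barcodes rich in both of 2 hormone genes over the number given by the product of their shares (y axis, a ratio), by library, under the 500-gene filter (left) and the stricter filter (right). Points are ratios and bars 95% Poisson intervals; in the right panel all values lie at or under 0.108, and in the left panel Gh with Prl reaches 0.254 in CTRL 1.

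The share of double-rich barcodes did not separate the diets. It was 0.212% of kept barcodes in HFD 1 (exact 95% binomial interval 0.124% to 0.340%) and 0.435% in HFD 2 (0.298% to 0.613%), against 1.84% in CTRL 1 (1.47% to 2.27%) and 0.395% in CTRL 2 (0.265% to 0.567%). HFD 2 lay above CTRL 2, so the diets overlapped. The mean was 0.323% ± 0.157 in HFD and 1.12% ± 1.02 in CTRL (SD, n = 2 each; exact 2-sided permutation p = 0.667, where 2 against 2 cannot go below 0.333). Under the stricter filter the means were 0.336% ± 0.169 in HFD and 0.517% ± 0.135 in CTRL, again with exact p = 0.667. The difference under the 500-gene filter was -0.79 percentage points with CTRL 1 and -0.07 without it. Of Gh-rich barcodes, 0.590% in HFD 1 and 1.12% in HFD 2 were double-rich under the stricter filter, against 1.74% in CTRL 1 and 1.49% in CTRL 2. These did not overlap (exact permutation p = 0.333, the smallest possible). Of Prl-rich barcodes, 1.55% in HFD 1 and 3.68% in HFD 2 were double-rich under the same filter, against 3.13% in CTRL 1 and 2.02% in CTRL 2, which overlapped (exact permutation p = 1). Without the marked doublets the shares of kept barcodes were 0.0533% and 0.115% in HFD, against 1.52% and 0.101% in CTRL.

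The rest of the transcriptome was then compared on UMI sums per class and library, given as CPM (counts per 1000000 of the sum) with Gh, Prl and mitochondrial genes left out, in 1 edgeR fit with the library as a block. Of 14380 genes tested, 954 (6.63%) differed between double-rich and Gh-only barcodes at an edgeR adjusted p under 0.05, 579 higher (4.03%) and 375 lower (2.61%). Against Prl-only barcodes 1087 (7.56%) differed, 620 higher (4.31%) and 467 lower (3.25%). The split depended on the tool and scaling: DESeq2 called 811 higher and 265 lower against Gh-only and 823 higher and 371 lower against Prl-only, and edgeR with library totals called 707 and 300 against Prl-only. Gh-only and Prl-only barcodes differed from each other at 7004 genes (48.7%). In CTRL 1, the 26 deep barcodes gave 1009260 of the 1068456 UMIs of the double-rich sum, Gh and Prl included.

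The rule chose the classes by Gh and Prl, so genes that differ between the single-hormone classes may differ in double-rich barcodes through that choice. Their levels are read by position. The p-values and counts of calls given for such genes describe the fit and are not independent support. Most somatotrope markers had levels in double-rich sums between those of the classes. Ghrhr, the receptor for growth hormone-releasing hormone (mm10 chr6:55376295-55388530, plus strand), had 123 CPM in HFD 1, 122 in HFD 2, 69.0 in CTRL 1 and 68.3 in CTRL 2 double-rich sums. Its Gh-only levels were 135, 164, 131 and 144 CPM, and its Prl-only levels 1.20 to 3.52 CPM. All 4 double-rich values lay below all Gh-only and above all Prl-only values. At least 1 Ghrhr UMI was found in 12 of 13, 25 of 32, 18 of 26 and 18 of 29 deep double-rich barcodes of HFD 1, HFD 2, CTRL 1 and CTRL 2. The log2 difference was -0.68 ± 0.18 (SE) against Gh-only (edgeR adjusted p = 0.0362) and 5.25 ± 0.27 against Prl-only (edgeR adjusted p = 6.2e-09). Pappa2, a protease that frees insulin-like growth factors from a binding protein, averaged 43.3 ± 16.8 CPM in double-rich, 80.6 ± 18.9 in Gh-only and 0.393 ± 0.081 in Prl-only sums (SD, n = 4 libraries each). Dlk1, a Notch-related membrane protein, averaged 2637 ± 205, 4133 ± 404 and 1208 ± 368 CPM in the same order of classes. Of the 7 somatotrope markers, 5 were lower and none higher than in Gh-only sums (median log2 -0.64), and 6 were higher and none lower than in Prl-only sums (median 2.96). The medians over all genes were -0.05 and -0.04.

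Most lactotrope markers were higher than in Gh-only sums. Agtr1a, an angiotensin II receptor, averaged 36.5 ± 7.90 CPM in double-rich sums, 1.11 ± 0.378 in Gh-only and 76.3 ± 8.02 in Prl-only sums (SD, n = 4 libraries each), with no overlap between the classes. Angpt1, a ligand of the Tie2 receptor (mm10 chr15:42424723-42676977, minus strand), had 187, 135, 111 and 102 CPM in HFD 1, HFD 2, CTRL 1 and CTRL 2 double-rich sums. It had 5.11 to 6.32 CPM in Gh-only and 187 to 238 CPM in Prl-only sums. Its UMIs lay in 12 of 13, 21 of 32, 20 of 26 and 24 of 29 deep double-rich barcodes. The log2 difference was 4.50 ± 0.13 against Gh-only (edgeR adjusted p = 2.7e-12) and -0.85 ± 0.11 against Prl-only (edgeR adjusted p = 7.5e-05). Edil3, an integrin-binding matrix protein, averaged 134 ± 9.44, 6.70 ± 1.07 and 283 ± 24.6 CPM in double-rich, Gh-only and Prl-only sums. Drd2, the dopamine receptor through which prolactin release is held down, averaged 49.3 ± 15.8 CPM in double-rich sums and 6.15 ± 2.24 in Gh-only sums, and its difference from Prl-only sums (83.9 ± 4.54 CPM) did not pass the threshold (edgeR adjusted p = 0.0621). Of 8 lactotrope markers measured out of 10 listed, 6 were higher and 1 lower than in Gh-only sums (median log2 3.69), and 1 was higher and 4 lower than in Prl-only sums (median -0.66). The exception both times was Prlr, the prolactin receptor, which was highest in Gh-only sums.

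**Figure D4:**
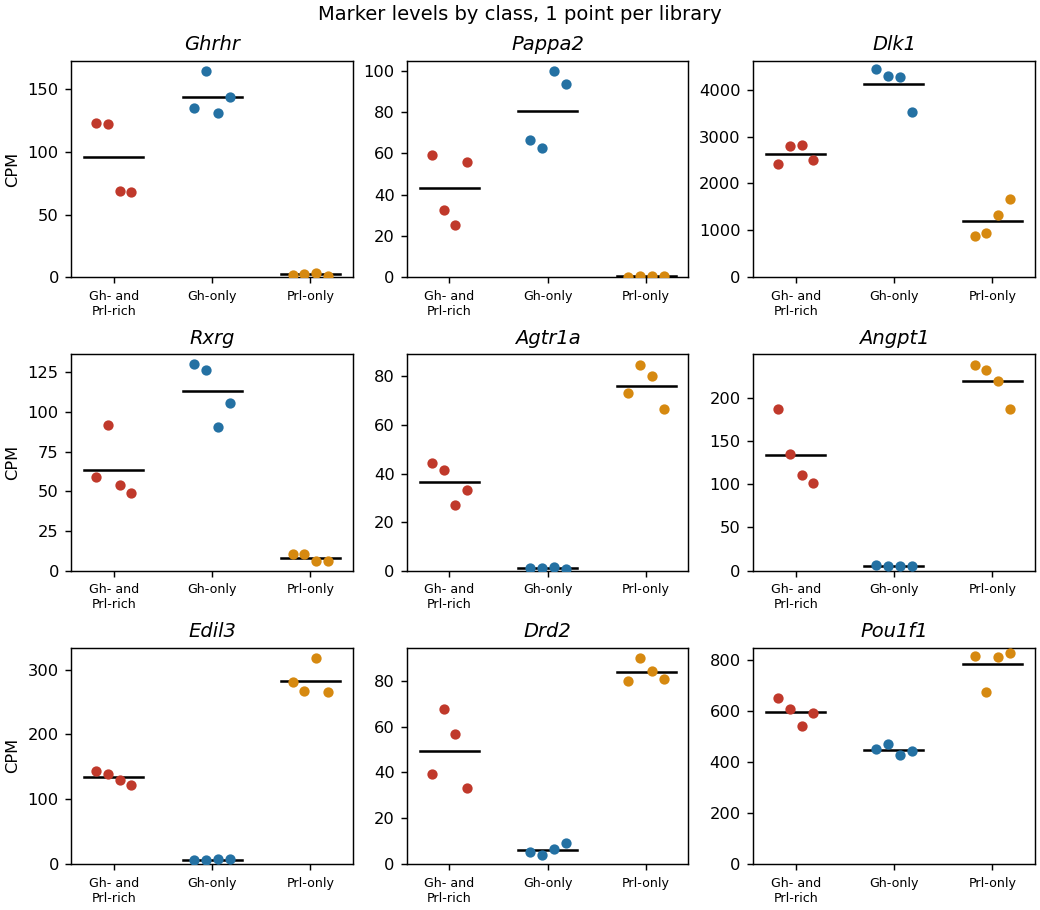
CPM (y axis, Gh, Prl and mitochondrial genes left out of the total) of 9 genes in double-rich, Gh-only and Prl-only sums. Each point is a library, in the order HFD 1, HFD 2, CTRL 1, CTRL 2 from left to right within a class, and each line is the class mean; the double-rich mean lies between the other 2 means for each gene drawn, as for Ghrhr (95.7, 144 and 2.24 CPM in double-rich, Gh-only and Prl-only sums).

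Among transcription factors of the lineage, Pou1f1 had 598 ± 45.3 CPM in double-rich, 448 ± 18.8 in Gh-only and 784 ± 71.6 in Prl-only sums (SD, n = 4 libraries each). It was higher than in Gh-only (log2 0.42 ± 0.075, edgeR adjusted p = 0.00204) and lower than in Prl-only sums (-0.46 ± 0.075, edgeR adjusted p = 0.000727). Lhx3, a LIM factor needed for the pituitary lineages, averaged 80.8 ± 14.8, 16.3 ± 1.14 and 141 ± 22.9 CPM in double-rich, Gh-only and Prl-only sums. Of 10 factors measured out of 11, 4 were higher and none lower than in Gh-only sums (median log2 0.31), and 1 was higher and 4 lower than in Prl-only sums (median -0.38).

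Receptors for other signals, secretory genes and genes of protein folding were counted in the same way. Nr3c1, the glucocorticoid receptor, averaged 89.3 ± 8.05 CPM in double-rich sums, against 189 ± 32.0 in Gh-only and 18.7 ± 3.51 in Prl-only sums. Of 15 receptors measured out of 18, 1 was higher and 3 lower than in Gh-only sums (median log2 -0.21), and 5 were higher and 1 lower than in Prl-only sums (median 0.44). Chgb, a granin of the secretory granule, averaged 6592 ± 1285, 1162 ± 97.5 and 11154 ± 1309 CPM in double-rich, Gh-only and Prl-only sums. Of 18 granule and processing genes, 7 were higher and 1 lower than in Gh-only sums (median log2 0.38), and 2 were higher and 6 lower than in Prl-only sums (median -0.34). The gene lower than in Gh-only sums was Syt1, a calcium sensor of exocytosis, at 273 ± 28.1 CPM against 453 ± 41.8 in Gh-only and 108 ± 30.7 in Prl-only sums. Of 15 endoplasmic reticulum and stress genes measured out of 16, 1 was higher than in Gh-only sums (Sdf2l1, a folding cofactor) and none lower (median log2 0.033), and 1 was higher and 5 lower than in Prl-only sums (median -0.17). Of 25 immediate-early genes, 1 was higher and 2 lower than in Gh-only sums (median -0.23) and none passed against Prl-only sums (median -0.13). Of 12 proliferation genes measured out of 18, none passed against Gh-only sums and 1, Hmgb2, was lower than in Prl-only sums (medians -0.09 and -0.36). Over all 14380 genes the share called was 6.63% against Gh-only and 7.56% against Prl-only sums, so the single call among the endoplasmic reticulum and stress genes against Gh-only sums lay near that background.

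Among genes with 50 CPM or more in the higher class and the same direction in all 4 libraries, those with the widest differences mostly set the single-hormone classes apart as well. Against Gh-only sums the 6 highest, after Angpt1 and Edil3, were Platr21, Hmcn1, Thsd7a and Ecel1, with log2 differences of 4.04, 3.79, 3.76 and 3.75, all of them lower than in Prl-only sums. The 6 lowest were Pomc (-1.65), Kcnmb2 (-1.27), Hk2 (-1.19), Alcam (-1.13), Gadd45a (-1.09) and Ceacam10 (-1.09). Against Prl-only sums the 6 highest, after Ghrhr, were Tent5c, Ddit4l, Car10, Ppp1r14a and Sms (log2 4.16 to 3.04). The 6 lowest were Pomc (-1.95), Lmo2 (-1.43), Csrnp3 (-1.41), Peg10 (-1.33), Gabra2 (-1.28) and Qpct (-1.23). Apart from Pomc, each of the 5 others lower than in Gh-only sums, such as Hk2, a hexokinase, was higher in double-rich than in Prl-only sums. Of the 5 others lower than in Prl-only sums, all but Csrnp3 passed as higher than in Gh-only sums. Csrnp3 averaged 20.3 CPM in double-rich and 15.8 CPM in Gh-only sums and was higher in 2 of 4 libraries (edgeR adjusted p = 0.619).

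The double-rich level was placed on the line between the classes for genes that differ between them by a log2 of 1 or more and reach 50 CPM, with 0 for the Prl-only and 100 for the Gh-only mean CPM. For 198 genes higher in Gh-only sums the median position was 52.1 (interquartile range 42.5 to 60.1), and 197 lay between the classes. For 179 genes higher in Prl-only sums it was 49.2 (41.6 to 57.3), and all 179 lay between. The medians within single libraries ran from 46.8 to 51.7. Within single libraries, 168 to 193 of the 198 genes and 157 to 173 of the 179 genes lay between, fewest in HFD 1. Under the stricter filter the medians were 52.4 and 49.5. These genes were chosen for their difference between the single-hormone classes, not by their double-rich values.

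Of all genes, 14 passed both tests with the same sign, whereas 363 (2.52%) passed both with opposite signs. The 4 genes above both classes (0.0278%) were Nefl, Nefm, Gamt and C1qtnf4. Nefl and Nefm encode neurofilament chains. All 19 Nefl UMIs of double-rich barcodes in CTRL 1 lay in 1 barcode, and the other 3 libraries had none. Nefm had 4.93 and 4.36 CPM in HFD 1 and HFD 2 and 39.0 and 21.0 CPM in CTRL 1 and CTRL 2 double-rich sums, against means of 6.82 ± 2.41 in Gh-only and 6.59 ± 0.51 CPM in Prl-only sums. Gamt, an enzyme of creatine synthesis, had 24.6, 34.9, 40.5 and 43.8 CPM in HFD 1, HFD 2, CTRL 1 and CTRL 2, above both other classes in each library (17.8 ± 3.27 and 19.6 ± 2.75 CPM in Gh-only and Prl-only sums). C1qtnf4, a secreted protein of the C1q and TNF family, averaged 194 ± 6.07, 162 ± 7.35 and 152 ± 13.8 CPM in double-rich, Gh-only and Prl-only sums. In CTRL 1 and CTRL 2, 2 double-rich barcodes held 1000 or more UMIs of Cga, a hormone gene of thyrotropes and gonadotropes. When these were left out, none of the 4 passed both tests. Gamt then had an edgeR adjusted p of 0.0160 against Gh-only and 0.0747 against Prl-only sums.

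The 10 genes below both classes (0.0695%) were Pomc, Oacyl, Homez, Gm41077, Pcdhgb7, Jpx, Ibtk, Pdcl, Ring1 and AY036118. Pomc had 384 CPM in HFD 1, 666 in HFD 2, 3878 in CTRL 1 and 592 in CTRL 2 double-rich sums. Gh-only sums had 1140, 2427, 5926 and 4825 CPM and Prl-only sums 1660, 3579, 5617 and 4246 CPM, above the double-rich value in each library. Of the 3878 CPM in CTRL 1, a part came from the shallow barcodes, whose median Pomc share was 2.31%. The median Pomc share per barcode under the stricter filter was 0.0211%, 0.0353%, 0.0433% and 0.0339% in double-rich barcodes of HFD 1, HFD 2, CTRL 1 and CTRL 2. It was 0.0199%, 0.0453%, 0.0477% and 0.0454% in Gh-only and 0.0372%, 0.0582%, 0.0637% and 0.0602% in Prl-only barcodes, so in HFD 1 the double-rich median lay above the Gh-only one. Oacyl, a melanotrope marker, had 7 UMIs in all double-rich barcodes, each in CTRL 1. Homez and Gm41077 had no UMI in any double-rich library, and with a floor of 3 UMIs over the 4 libraries they were at least 2.65-fold and 2.00-fold lower than in Gh-only sums and at least 2.13-fold and 2.41-fold lower than in Prl-only sums.

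**Figure D5:**
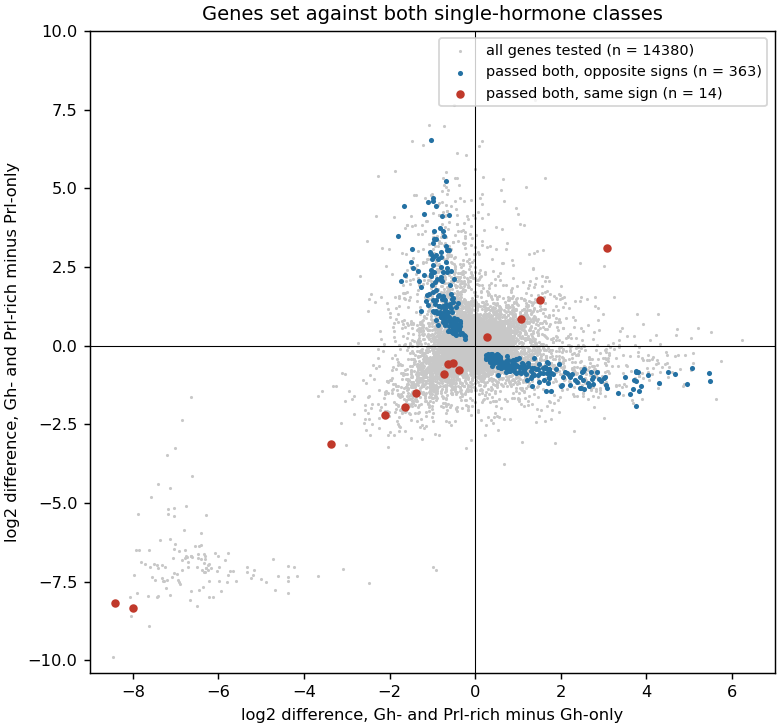
Fitted log2 difference of double-rich minus Gh-only sums (x axis) against double-rich minus Prl-only sums (y axis) for 14380 genes. Blue points passed both tests with opposite signs (363) and lie in the upper left and lower right; red points passed both with the same sign (14), 4 above and 10 below. The cloud at lower left holds genes with no or hardly any UMI in double-rich sums, whose fitted values are not bounds.

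Diet within double-rich barcodes was compared on 4 sums, from 17 and 32 barcodes in HFD and 83 and 29 in CTRL, with mitochondrial genes kept in the total. Of 7531 genes tested, 19 (0.252%) were lower in HFD and none was higher at an edgeR adjusted p under 0.05, where 485 had an unadjusted p under 0.05 and DESeq2 called 9 lower and none higher. Without the shallow barcodes (stricter filter) 22 genes passed, 17 of them among the 19. Leaving out any 1 library gave 56 to 86 genes, 17 or 19 of them among the 19. Without the marked doublets, which left 4 and 8 barcodes in HFD and 66 and 7 in CTRL, 3 genes passed.

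Metallothionein and immediate-early genes made up 10 of the 19. Mt1, a metal-binding protein (mm10 chr8:94179082-94180327, plus strand), had 282 and 448 CPM in HFD 1 and HFD 2, against 1471 and 1589 CPM in CTRL 1 and CTRL 2, a log2 difference of -2.05 ± 0.18 (edgeR adjusted p = 7.0e-06). Mt2 had 38.3 and 74.4 CPM in HFD, against 248 and 183 CPM in CTRL (-1.82 ± 0.26, edgeR adjusted p = 0.00172). In the same libraries Mt1 averaged 575 CPM in HFD and 1279 in CTRL in Gh-only sums, and 452 and 842 CPM in Prl-only sums. For Gh-only and Prl-only sums, these means and those given below leave mitochondrial genes out of the total, unlike the double-rich values of this fit. Btg2, an anti-proliferative immediate-early gene, had 287 and 453 CPM in HFD, against 1065 and 1217 CPM in CTRL (-1.61 ± 0.19, edgeR adjusted p = 0.000257). Its UMIs were spread widely, with at least 1 UMI in 14 of 17, 31 of 32, 56 of 83 and 29 of 29 double-rich barcodes of HFD 1, HFD 2, CTRL 1 and CTRL 2. Of 23 immediate-early genes measured out of 25, 8 were lower (Fos, Fosb, Junb, Egr1, Nr4a1, Atf3, Btg2 and Zfp36), none was higher, and the median log2 difference was -1.03, against -0.00 over all genes. Fos had 1162 and 1729 CPM in HFD, against 2750 and 2862 CPM in CTRL, with no overlap (log2 -0.97, edgeR adjusted p = 0.00804). Its mean was also lower in HFD in the other classes, at 1859 against 4234 CPM in Gh-only and 1549 against 2212 CPM in Prl-only sums.

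For other genes of the set, single barcodes held much of the CTRL value. Cga, the subunit shared by the glycoprotein hormones of thyrotropes and gonadotropes, had 124 and 249 CPM in HFD, against 7934 and 7682 CPM in CTRL (log2 -5.33 ± 0.21, edgeR adjusted p = 1.0e-11). In CTRL 1, 1 barcode of 88881 UMIs held 4544 Cga UMIs, 83.7% of the total, along with 736 of 790 UMIs of Fshb, a gonadotrope gene. In CTRL 2, 1 barcode of 71177 UMIs held 4363 Cga UMIs (97.0%) and 2406 of 2423 UMIs of Tshb, the thyrotrope hormone subunit. Both were marked as doublets. Without those 2 barcodes the Cga difference was -2.08 (edgeR adjusted p = 0.291) and 14 genes passed, all among the 19, with Mt1 at -2.09, Btg2 at -1.65, Mt2 at -1.90 and Fosb at -1.68. Single barcodes of CTRL 2 also held 98.2% of the Timp3, 96.7% of the Mia and 91.4% of the Atf3 UMIs of its double-rich sum. Timp3, a metalloproteinase inhibitor, had no UMI in HFD and was at least 15.9-fold lower there, with a floor of 3 UMIs over the 2 libraries. In CTRL 1, 1 barcode held 52.9% of the Timp3 UMIs, so this bound rests largely on single barcodes. Gh-only sums averaged 28.8 CPM of Timp3 in HFD and 24.8 in CTRL, and Prl-only sums 49.3 and 39.8 CPM. Neither class mean was lower in HFD. Gal, the peptide galanin, had 0 and 4.25 CPM in HFD, against 110 and 54.7 CPM in CTRL (edgeR adjusted p = 0.00172), where in CTRL 1 1 barcode held 61.3% of its UMIs. The Gal mean was also lower in HFD in the other classes, at 2.76 against 7.91 CPM in Gh-only and 21.3 against 104 CPM in Prl-only sums.

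Whether the diet difference was another in double-rich than in single-hormone barcodes was tested as an interaction in the fit of 12 sums. Against Gh-only barcodes 2 of 14380 genes passed (0.0139%), 1 in each direction (0.00695% each), and Cga was the one with the lower diet difference in double-rich barcodes, where 830 had an unadjusted p under 0.05. Against Prl-only barcodes 2 passed (0.0139%), Cga and Btg2, where 822 had an unadjusted p under 0.05. The median interaction of the 25 immediate-early genes was -0.22 against Gh-only and -0.78 against Prl-only barcodes, where the medians over all genes were -0.04 and -0.05, and Btg2 alone of them passed. Mt1 and Fos passed neither test, which does not show that the diet acted alike in the classes.

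Markers of other cell types were also summed in the double-rich barcodes. The summed level of 5 thyrotrope markers was 182 and 319 CPM in HFD 1 and HFD 2 and 8324 and 12166 CPM in CTRL 1 and CTRL 2, with Trhr at 0 in both HFD libraries. Over the 4 libraries it ran from 650 to 4493 CPM in Gh-only and from 1501 to 5646 CPM in Prl-only sums. That of 6 gonadotrope markers was 133 and 277 CPM in HFD and 9544 and 7903 CPM in CTRL. Gh-only sums had 617 to 4668 CPM of these and Prl-only sums 1285 to 5637 CPM. Cga is in both lists, and the 2 double-rich barcodes rich in it held most of the CTRL double-rich values. The summed level of 6 corticotrope and melanotrope markers was 582 and 753 CPM in HFD and 3981 and 639 CPM in CTRL, with Crhr1, Pax7 and Oacyl at 0 in every library but CTRL 1. This level ran from 1211 to 6028 CPM in Gh-only and from 1920 to 5789 CPM in Prl-only sums. The summed level of 8 endothelial markers was 4.93 and 6.55 CPM in HFD and 112 and 0 CPM in CTRL, against 43.5 to 54.5 CPM in Gh-only and 25.4 to 114 CPM in Prl-only sums. That of 8 macrophage and leukocyte markers was 9.86 and 13.1 CPM in HFD and 694 and 14.01 CPM in CTRL. Their part in the differences between classes and diets was not tested beyond leaving out the barcodes named above.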

How the data were processed

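Single-cell RNA-seq of 4 pituitary libraries was deposited by the authors as UMI counts per gene and barcode (32285 genes), made with Cell Ranger 6.1.2 on mm10 and handled in Seurat 4.3, per the submitters' processing notes. For the annotation and for strand, the setting is not given in the sources used here. No deposited barcode had fewer than 500 UMIs.

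Classes were set by the Gh and Prl shares, and the members, gene lists and tests were chosen with earlier results of these data known. Intervals cover counting error only: exact binomial for shares, exact Poisson for co-occurrence. Medians were compared over libraries with exact 2-sided permutation tests (scipy 1.17.1). Genes at a fixed depth were computed analytically for 3000 UMIs. Doublets were scored as the share of simulated pairs (2 per barcode) among neighbours on 30 principal components (Python 3.11.15, scikit-learn 1.9.0), were kept in the main comparisons and left out in an alternative.

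Counts were summed per library and class without Gh, Prl and the 13 mitochondrial genes, filtered with filterByExpr, scaled by TMM and tested with edgeR 4.0.16 (R 4.3.3) in a quasi-likelihood fit of 12 sums with the library as a block, since each library gave all 3 classes. P-values were Benjamini-Hochberg adjusted over all genes tested, with a threshold of 0.05. DESeq2 1.42.0 was an alternative. The diet fit within double-rich barcodes had been planned only for libraries with 30 or more of them; HFD 1 and CTRL 2 had fewer, so it was added after the counts were seen. The main edgeR fits of classes, interaction and diet were tested on simulated data with an assumed dispersion, and the alternative fits were not. Named genes were, per class comparison, the 6 highest and 6 lowest fold changes with one direction in 4 of 4 libraries and 50 CPM, the genes outside both classes, the diet genes with the smallest adjusted p, and the listed genes. Some genes that the rule takes are not reported here. Genes named outside this rule were chosen after their values were seen. A floor of 3 UMIs stood for a group at 0.

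Alternatives were a stricter barcode filter, stricter limits (20% Gh, 10% Prl), leaving out marked doublets or each library, no low-count filter, library totals, no block, and Gh and Prl kept in. Chosen after seeing the data were leaving out shallow copies and leaving out the barcodes rich in Cga.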

Additional observations from a re-analysis of the deposited data

Results flagged for a closer look

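The interaction tests gave 2 genes reported here whose diet difference in double-rich barcodes was unlike that in a single-hormone class. Cga had a diet difference in double-rich barcodes that was lower by a log2 of -4.79 ± 0.66 than in Gh-only barcodes (SE, edgeR adjusted p = 0.0147) and by -6.44 ± 0.65 than in Prl-only barcodes (edgeR adjusted p = 0.000528). With the 2 barcodes rich in Cga left out, these differences were -1.16 and -2.56 (edgeR adjusted p = 0.843 and 0.247). Over 11 alternatives each ranged from -6.30 to -1.16 and from -6.84 to -2.56, and each passed in 7 of 11.

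Btg2 had a diet difference that was lower by -1.05 ± 0.14 in double-rich than in Prl-only barcodes (edgeR adjusted p = 0.0158), with a range of -1.31 to -0.84 over 11 alternatives, 9 of which passed. Leaving out the marked doublets was among the alternatives in which it did not pass. The Btg2 levels were 296 and 465 CPM in HFD and 1093 and 1247 CPM in CTRL double-rich sums. In Prl-only sums they were 572 and 723 CPM in HFD and 947 and 1032 CPM in CTRL. Gh-only sums had 470 and 618 CPM in HFD and 1422 and 1344 CPM in CTRL, and the difference between double-rich and Gh-only barcodes in the diet effect on Btg2 did not pass.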

How the results depend on the processing

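The log2 ratio of UMI totals was positive under the stricter barcode filter (0.94 over Gh-only, 1.06 over Prl-only) and the stricter limits (0.88 and 1.02), as was that of gene numbers (0.54 and 0.50, 0.46 and 0.43); under the 500-gene filter it was negative through CTRL 1, and without marked doublets it was -1.63 and -1.49 for UMIs and -1.13 and -1.16 for genes, with CTRL 1 and HFD 1 below 1 in ratio. Leaving out 1 library gave -0.90 to 0.95 and -0.68 to 1.04 for UMIs, -0.58 to 0.56 and -0.62 to 0.51 for genes, and -1.52 to -0.07 points for the diet difference in share. Ratios for barcodes no deeper than the Gh-only median could not be fitted, as CTRL 2 had none.

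Genes differing from Gh-only barcodes numbered 126 under the stricter limits, 214 without marked doublets, 1438 without a low-count filter and 516 to 942 without 1 library. From Prl-only barcodes they numbered 336, 363 and 670 to 1015 under the first, second and last of these. Genes outside both classes numbered 5 under the stricter limits, 59 without a low-count filter, 9 without the library block, 9 without barcodes rich in Cga and 4 to 19 without 1 library. Interactions against Gh-only and Prl-only barcodes numbered 1 and 0 without marked doublets, 1 and 1 without barcodes rich in Cga, 79 and 120 without a low-count filter, 5 and 9 with DESeq2 (adjusted p for 998 genes in the second), and 0 to 20 and 0 to 33 without 1 library. Diet genes numbered 106 without a low-count filter, 34 with library totals, 9 with DESeq2, 0 under the stricter limits (79 at an unadjusted p under 0.05), 3 without marked doublets and 56 to 86 without 1 library, where a lone library is assumed to vary like the others. With the replicate number as a block they numbered 50, but the labels do not state that same-numbered libraries are pairs. Deviations of same-numbered libraries from the diet means had a correlation of -0.03 over 7531 genes. Sums of so few barcodes carry much counting error, so this value cannot decide whether the libraries were paired. Cga turned to 0.13 between diets under the stricter limits, and Oacyl to 0.35 against Gh-only and 0.044 against Prl-only barcodes without marked doublets. The cause of these changes was not tested.

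For named genes, 234 values kept their direction and call, 55 kept the direction only and 1 turned against each single-hormone class. In HFD 1, 17 double-rich barcodes limit what a sum can show.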
